A study of Mus musculus with 298 samples.

Results

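The genes described here are Bmp4, which encodes the secreted ligand BMP4, Fst, which encodes the secreted antagonist follistatin, and 7 genes for type I and type II receptors of bone morphogenetic proteins (BMPs) and activins: Bmpr1a, Bmpr1b, Acvr1, Acvr1b, Bmpr2, Acvr2a and Acvr2b. They are 9 of the 16892 genes in a table of counts for single cells of thoracic sympathetic ganglia of mice. The genes were chosen by name, with their levels in these cells already known, so that their differences between cell identities are a description and carry no test. All 9 had counts in the table and all 9 passed the filter on low values described below.

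BMPs, activins and TGF-beta are dimeric ligands that bring together type I and type II serine/threonine kinase receptors. The type II receptor phosphorylates the type I receptor, which then phosphorylates SMAD1, SMAD5 and SMAD9 in response to BMPs, or SMAD2 and SMAD3 in response to activins and TGF-beta. Id genes are classical transcriptional targets of the BMP branch. Follistatin binds activins tightly and several BMPs less tightly, and keeps them from their receptors. In the embryo, BMPs released by the dorsal aorta induce neural crest cells to become sympathetic neurons, and in later life BMPs shape the growth of sympathetic dendrites.

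The cells came from mice with a Wnt1-Cre driver and an R26R-Tomato reporter, in which the neural crest lineage is marked. No treated or mutant group was included. Ganglia were taken on postnatal days 11 to 38, enzymatically dissociated, and cells were caught on the medium-sized chip of the Fluidigm C1, a microfluidic device that isolates single cells. Wnt1-Cre acts in the neural crest, so both the neurons and the glia of the ganglion can carry the reporter, and the labels say that it served to tell the ganglia from the tissue around them. The labels give 298 cells, of which 213 have 1 of 8 identities. There were 8 cells of Ach1 and 8 of Ach2 (cholinergic), 4 Glutamatergic cells, and 193 noradrenergic cells: 10 of Noradrenergic1, 39 of Noradrenergic2, 18 of Noradrenergic4, 23 of Noradrenergic5 and, as the largest identity, the rest in Noradrenergic3. The other 85 were labelled Unclassified. No animals are named, so cells with the same sex and age were taken as a collection and served as the replicate. There were 10 collections, 3 male with 91 cells and 7 female with 207 cells.

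The median cell had 33099 counts, the shallowest 7225 and the deepest 81589. The 213 named cells carried neuronal transcripts throughout: Snap25 was counted in 213, Dbh in 212 and Th in 204 of them. Defining markers of other cell types were sparse, with Csf1r in 1 cell, Cdh5 in 4, Pecam1 in 12, Col1a1 in 17 and Dcn in 25, while the glial gene Sox10 was counted in 32. The P16 female collection of 5 cells goes against its label, with 28 Y-linked counts in 5 of 5 cells and 0 Xist counts. It holds 1 cell each of Noradrenergic2, Ach1 and Ach2 among the named cells. Without this collection the mean of Fst in Ach2 fell from 0.538 to 0 counts per 10000, and that of Acvr2a in Ach2 from 0.508 to 0.199. The mean of Fst in Noradrenergic2 rose from 2.58 to 2.87. Fitted values without P16 female are given where a call changes. Levels below are counts per 10000 counts of all genes, after the cells of an identity in a collection were summed, with the mean ± SD over collections. A collection of a small identity is often 1 cell.

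The members lie on 7 chromosomes. In the GRCm38 (mm10) annotation, Bmp4 spans chr14:46383520-46390669 on the minus strand, Fst chr13:114452290-114458951 (minus), and Bmpr1b chr3:141837136-142169425 (minus). Of the other receptor genes, Bmpr1a spans chr14:34410734-34503341 (minus), Acvr1 chr2:58388644-58567157 (minus), Acvr1b chr15:101174067-101213684 (plus), Bmpr2 chr1:59763400-59879014 (plus), Acvr2a chr2:48814109-48903269 (plus) and Acvr2b chr9:119402118-119434995 (plus). An annotated gene on the opposite strand overlaps 6 of the 9, among them Bmp4 (Gm15217 and Gm15222), Fst (Gm47040) and Acvr2a (Orc4). Whether the counting used strand is not given in the sources used here, so reads of such partners cannot be told apart from those of the member.

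The 250 bases before a transcription start are shown for 3 members with unlike patterns: Bmp4, counted mainly in Noradrenergic2, Bmpr1b, counted mainly in Noradrenergic3, 4 and 5, and Bmpr2, counted in nearly every cell. Of the members, 8 had a RefSeq promoter entry and Fst had none. The windows shown are RefSeq promoters of build GRCm38.p6, printed 5′ to 3′ on the strand of the gene: Bmp4 at chr14:46390670-46390919 (minus), Bmpr1b at chr3:141982265-141982514 (minus, before the first listed of 3 starts), and Bmpr2 at chr1:59764029-59764278 (plus). The Bmpr1b and Bmpr2 windows lie inside the annotated genes. Capitals mark E-boxes, CANNTG, the sequence bound by basic helix-loop-helix factors such as those of the sympathetic lineage.
Bmp4: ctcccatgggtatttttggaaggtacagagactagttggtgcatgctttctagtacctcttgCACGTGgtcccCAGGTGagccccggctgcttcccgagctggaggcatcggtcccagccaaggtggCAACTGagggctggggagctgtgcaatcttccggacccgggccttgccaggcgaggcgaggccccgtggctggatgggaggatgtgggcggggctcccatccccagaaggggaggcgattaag
Bmpr1b: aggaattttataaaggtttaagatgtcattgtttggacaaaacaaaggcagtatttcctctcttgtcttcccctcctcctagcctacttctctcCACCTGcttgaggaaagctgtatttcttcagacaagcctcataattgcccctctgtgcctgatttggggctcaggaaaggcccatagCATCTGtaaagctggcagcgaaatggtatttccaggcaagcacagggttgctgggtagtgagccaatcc
Bmpr2: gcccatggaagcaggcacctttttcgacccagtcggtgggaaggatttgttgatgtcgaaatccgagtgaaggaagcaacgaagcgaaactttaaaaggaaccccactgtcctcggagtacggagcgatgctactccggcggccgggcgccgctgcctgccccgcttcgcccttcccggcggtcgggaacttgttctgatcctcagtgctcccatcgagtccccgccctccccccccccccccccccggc
The Bmp4 window held 3 E-boxes, the Bmpr1b window 2 and the Bmpr2 window 0. The motif reads the same on both strands, so 1 search covers both, and it occurred in 66.2% of the 32807 promoter windows of this length. The share of G and C was 63.2% for Bmp4, 46.8% for Bmpr1b and 64% for Bmpr2, against a median of 52.4% over all windows. The Bmp4 window had 11 CpG dinucleotides, that of Bmpr1b 1 and that of Bmpr2 22, with a median of 6 over all windows. The sequence TATAAA was found 2 times in the Bmpr1b window, as overlapping matches on opposite strands at a single place. It occurred in 12.4% of all windows. A match is only a description of these letters.

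Follistatin divided the noradrenergic identities. Fst was high in Noradrenergic1, 2 and 3 and low in Noradrenergic4 and 5 and in the cholinergic cells. Fst averaged 2.58 ± 1.08 counts per 10000 in Noradrenergic2 (SD, n = 7 collections), 2.42 ± 0.557 in Noradrenergic1 (n = 5) and 2.32 ± 0.455 in Noradrenergic3 (n = 7). These 3 neighbours in the order differ by less than their SD. The next in order was Ach2 with 0.538 ± 1.08 (n = 4), then Glutamatergic with 0.522 ± 0.904 (n = 3), Noradrenergic4 with 0.387 ± 0.662 (n = 5), Noradrenergic5 with 0.229 ± 0.491 (n = 6) and Ach1 with 0.112 ± 0.200 (n = 7). The step from Noradrenergic3 down to Ach2 is larger than either SD, and none of the later steps is. Without P16 female, Fst averaged 2.87 ± 0.843 in Noradrenergic2 (n = 6) and 0.131 ± 0.212 in Ach1 (n = 6), and was at 0 in Ach2 (n = 3).

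The Fst levels of the 5 Noradrenergic1 collections were 1.77, 2.15, 2.21, 2.77 and 3.18 counts per 10000. In Noradrenergic2 the lowest, median and highest collection had 0.855, 2.99 and 3.73, and in Noradrenergic3 they had 1.56, 2.31 and 2.87. In Noradrenergic4 the lowest, median and highest were 0, 0.111 and 1.57, and in Noradrenergic5 they were 0, 0 and 1.22. The ranges overlap through single collections: P33 is the high one in Noradrenergic4, P34 in Noradrenergic5, and the P16 cell is the low one in Noradrenergic2. Without that cell the lowest Noradrenergic2 collection had 1.38, below the P33 value of Noradrenergic4 and above all of Noradrenergic5.

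Counted by cell, Fst was present in 10 of 10 Noradrenergic1 cells, 39 of 39 Noradrenergic2 cells and all but 2 Noradrenergic3 cells (98.1%). It was present in 6 of 18 Noradrenergic4 cells and 2 of 23 Noradrenergic5 cells. The median total of these cells was 35553 in Noradrenergic5 and 36658 in Noradrenergic3. With each cell thinned to 15000 counts, Fst was found in 8 of 9 cells of Noradrenergic1, 35 of 39 of Noradrenergic2 and 97 (94.2%) of Noradrenergic3, and in 4 of 18 and 2 of 22 cells of Noradrenergic4 and 5. In all, Noradrenergic1 to 3 held 1450 Fst counts over 152 cells and Noradrenergic4 and 5 held 24 over 41 cells.

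**Figure D1:**
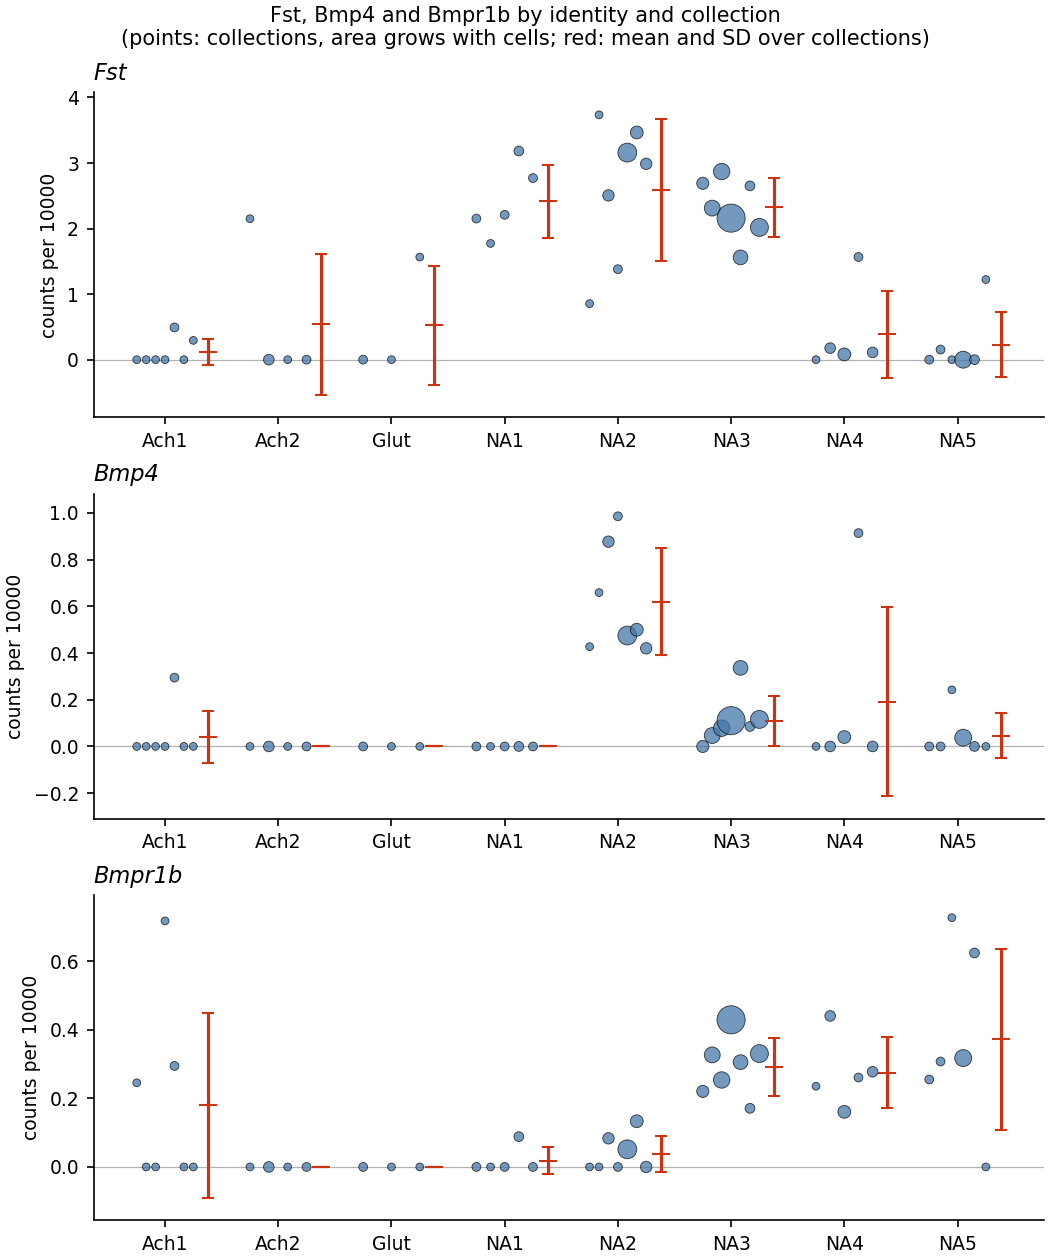
Level of Fst, Bmp4 and Bmpr1b (counts per 10000, linear axes) in each identity, with a point for each collection whose area grows with its number of cells, and the mean and SD over collections in red (NA1 to NA5 stand for Noradrenergic1 to Noradrenergic5, Glut for Glutamatergic). Fst lies near 2.58, 2.42 and 2.32 in Noradrenergic2, 1 and 3, Bmp4 at 0.621 in Noradrenergic2, and Bmpr1b at 0.372, 0.291 and 0.275 in Noradrenergic5, 3 and 4. SD bars reach below 0 in groups whose SD is larger than their mean.

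In the small identities, almost all Fst counts sat in single cells. The 8 Glutamatergic counts came from 1 cell of P33 that also held 130 Th and 68 Slc6a2 counts, the genes for tyrosine hydroxylase and the noradrenaline transporter. The 6 Ach2 counts came from the P16 cell, which held 1 Th count, and Ach2 is at 0 without that collection. Of the 6 Ach1 counts, 5 came from a P31 cell with 61 Th counts, 63 Slc6a2 counts and 0 counts of Slc18a3, the vesicular acetylcholine transporter. That cell also held all 3 Bmp4 counts of Ach1. The other Ach1 count was in a P38 cell with 57 Th counts. In Noradrenergic4, 12 of 18 Fst counts came from 2 cells of P33, 1 of which held 7 of the 8 Bmp4 counts of that identity. In Noradrenergic5, 5 of 6 Fst counts came from 1 cell of P34.

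Bmp4 was highest in Noradrenergic2. It averaged 0.621 ± 0.229 counts per 10000 there (SD, n = 7), with a lowest, median and highest collection of 0.420, 0.500 and 0.986, and 0.653 ± 0.233 without P16 female (n = 6). Noradrenergic4 followed with 0.191 ± 0.405 (n = 5), Noradrenergic3 with 0.110 ± 0.107 (n = 7), Noradrenergic5 with 0.0466 ± 0.0971 (n = 6) and Ach1 with 0.0421 ± 0.111 (n = 7). The step from Noradrenergic2 to Noradrenergic4 exceeds both SDs, and those from Noradrenergic4 to Ach1 do not. No Bmp4 was counted in Noradrenergic1, Ach2 or Glutamatergic cells, which with a limit of 3 counts per identity allows up to 0.103, 0.125 and 0.248 counts per 10000. Every Noradrenergic2 collection lay above every Noradrenergic3 collection, and the P33 collection of Noradrenergic4, at 0.914, was the only other value in their range.

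Bmp4 was counted in 33 of 39 Noradrenergic2 cells, with 0 counts in 6 cells, 1 in 9, 2 in 12, and 3 or more in 12, up to 13. It was counted in 22 Noradrenergic3 cells (21.4%), 2 of 18 Noradrenergic4 cells, 3 of 23 Noradrenergic5 cells and 1 of 8 Ach1 cells. Noradrenergic2 cells were the deepest, with a median total of 43245 against 36658 in Noradrenergic3. After thinning to 15000 counts, 20 of 39 Noradrenergic2 cells and 12 Noradrenergic3 cells (11.7%) kept a Bmp4 count. Fibroblasts also express Bmp4. The summed level of 6 fibroblast markers in Noradrenergic2 cells ran from 0 to 1.06 counts per 10000 with a median of 0. Col1a1 was counted in 0 and Dcn in 2 of the 39. In Noradrenergic3 the marker level had a median of 0 and a highest cell of 98.9, and in Noradrenergic5 0.203 and 20.2. The part of fibroblast RNA in the Bmp4 counts was not tested.

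All of the Noradrenergic2 cells with Bmp4 also held Fst. Among the 39 cells the log2 levels of Fst and Bmp4 (pseudocount 0.1) had a Pearson r of -0.13 and a Spearman rho of -0.11. In the Noradrenergic3 cells r was 0.0066. Ligand and antagonist transcripts lay in the same cells of Noradrenergic2, which follows from Fst being counted in all 39 of them. Noradrenergic1, at a like Fst level, had no Bmp4 count in 10 cells.

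Bmpr1b, a type I receptor that binds BMPs, was counted mainly in Noradrenergic3, 4 and 5 and little in Noradrenergic2, where Bmp4 was highest. Both genes were at or near 0 in Noradrenergic1, Ach2 and Glutamatergic cells. Bmpr1b averaged 0.372 ± 0.264 counts per 10000 in Noradrenergic5 (SD, n = 6), 0.291 ± 0.0846 in Noradrenergic3 (n = 7) and 0.275 ± 0.103 in Noradrenergic4 (n = 5). The lowest, median and highest collections were 0, 0.313 and 0.727 in Noradrenergic5, and 0.171, 0.306 and 0.429 in Noradrenergic3. In Noradrenergic4 they were 0.161, 0.261 and 0.441. Ach1 had 0.180 ± 0.270 (n = 7), Noradrenergic2 0.0383 ± 0.0534 (n = 7) and Noradrenergic1 0.0177 ± 0.0395 (n = 5), and Ach2 and Glutamatergic cells had 0. Without P16 female, Ach1 had 0.169 ± 0.294 (n = 6) and Noradrenergic2 0.0447 ± 0.0555 (n = 6). Every neighbouring step down to Noradrenergic1 is within the larger SD, but no Noradrenergic2 collection, the highest at 0.133, reached the lowest of Noradrenergic3 or 4.

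Bmpr1b was counted in 62 Noradrenergic3 cells (60.2%), 11 of 18 Noradrenergic4 cells and 15 of 23 Noradrenergic5 cells, against 7 of 39 Noradrenergic2 cells and 1 of 10 Noradrenergic1 cells. The deeper Noradrenergic2 cells thus had the lower share. After thinning, it was found in 44 cells of Noradrenergic3 (42.7%), 8 of 18 of Noradrenergic4 and 8 of 22 of Noradrenergic5, against 3 of 39 of Noradrenergic2. In Ach1, 4 of 8 cells had a count.

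Bmpr1a, the other BMP type I receptor of the pair, varied less. It averaged 0.940 ± 0.978 counts per 10000 in Noradrenergic1 (SD, n = 5), where a single P30 cell of 11281 counts had 3 of them, and the pooled level was 0.551. The other identities ran from 0.254 ± 0.133 in Noradrenergic5 to 0.557 ± 0.503 in Glutamatergic cells, and no step in the order exceeded the larger SD. Bmpr1b made up 134 of 243 Bmpr1a and Bmpr1b counts in Noradrenergic3, or 55.1% (95% exact Clopper-Pearson interval 48.7 to 61.5). In Noradrenergic5 it was 54.9% of 51 (40.3 to 68.9) and in Noradrenergic4 38.6% of 44 (24.4 to 54.5). In Noradrenergic2 it was 18.5% of 54 (9.25 to 31.4) and in Noradrenergic1 5.88% of 17 (0.149 to 28.7). The share serves to set identities side by side, because the genes differ in length, and the intervals cover counting error only.

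Acvr1, the type I receptor also called ALK2, averaged between 0.0691 ± 0.0763 counts per 10000 in Noradrenergic5 (n = 6) and 0.357 ± 0.462 in Noradrenergic4 (n = 5). It was counted in 99 of the 213 named cells. Acvr1b, the activin type I receptor ALK4, was sparse, with 65 counts in 54 named cells. Its levels ran up to 0.0992 ± 0.115 in Ach2 (n = 4), or 0.132 ± 0.115 without P16 female (n = 3), and it was at 0 in Noradrenergic1 and Glutamatergic cells.

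Bmpr2, the BMP type II receptor, was the most even of the members. It was counted in 208 of 213 named cells. Its level ran from 1.42 ± 0.770 counts per 10000 in Noradrenergic5 (n = 6) through 1.53 ± 0.489 in Noradrenergic1 (n = 5), 1.56 ± 0.294 in Noradrenergic3 (n = 7), 1.72 ± 0.238 in Noradrenergic2 (n = 7) and 1.96 ± 0.988 in Noradrenergic4 (n = 5) to 2.13 ± 0.334 in Glutamatergic (n = 3), 2.15 ± 0.601 in Ach1 (n = 7) and 2.22 ± 0.370 in Ach2 cells (n = 4). Each step is within the larger SD. In the 7 collections with both kinds of cell, cholinergic cells were above noradrenergic cells in 7, with means of 2.12 ± 0.437 (n = 7) and 1.60 ± 0.231 (n = 10). Without P16 female they were above in 6 of 6, with means of 2.01 ± 0.362 (n = 6) and 1.59 ± 0.242 (n = 9). Glial markers move with this difference, as given below.

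Acvr2a, a type II receptor shared by activins and BMPs, was lower where Fst was low among the noradrenergic identities. It averaged 0.191 ± 0.0879 counts per 10000 in Noradrenergic4 (SD, n = 5) and 0.186 ± 0.115 in Noradrenergic5 (n = 6), against 0.447 ± 0.205 in Noradrenergic2 (n = 7), 0.405 ± 0.107 in Noradrenergic3 (n = 7) and 0.367 ± 0.271 in Noradrenergic1 (n = 5). In pooled levels, Noradrenergic4 was below the other noradrenergic cells in 5 of 5 collections and Noradrenergic5 in 6 of 6. The fit described below weights identities equally. There the log2 fold change was -1.21 (SE 0.50) in Noradrenergic4 and -0.44 (SE 0.45) in Noradrenergic5, and neither was called. Cholinergic cells had 0.508 ± 0.639 in Ach2 (n = 4) and 0.389 ± 0.358 in Ach1 (n = 7), and without P16 female 0.199 ± 0.202 in Ach2 (n = 3) and 0.331 ± 0.354 in Ach1 (n = 6). Acvr2b, its paralogue, had 50 counts in 44 named cells and at most 0.0887 ± 0.0853 in Noradrenergic2.

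**Figure D2:**
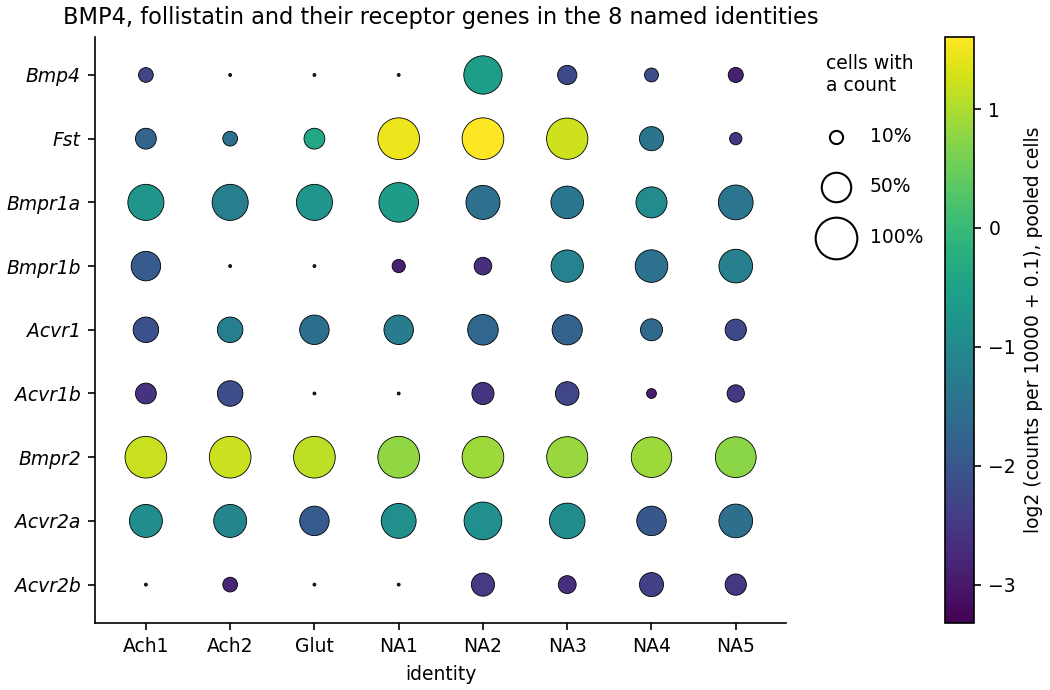
The 9 genes in the 8 named identities (NA, noradrenergic; Glut, glutamatergic): the area of a dot grows with the share of cells with a count and its colour gives log2 of counts per 10000 plus 0.1, with all cells of the identity pooled. Bmpr2 is even throughout, Fst is strong in Noradrenergic1, 2 and 3, Bmp4 in Noradrenergic2, and Bmpr1b in Noradrenergic3, 4 and 5.

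The same contrasts were fitted across all genes with edgeR's quasi-likelihood test on summed counts of 44 identity by collection libraries, in which a gene was called at a Benjamini-Hochberg adjusted p under 0.05. Since the members were chosen with these contrasts known, the calls are listed only as a description. In cholinergic against noradrenergic cells 0 of 9 members were called, where 4.57% of 11555 genes were. For Bmp4 and Acvr2b the fit gave no usable SE in this contrast, so these genes could not have been called. In Noradrenergic1 against the other noradrenergic identities 0 of 9 were called (1.39% of genes). In Noradrenergic2 there were 2 of 9 (1.64%), with log2 fold changes of 3.54 for Bmp4 and 2.20 for Fst. In Noradrenergic3 there were also 2 of 9 (1.74%), Fst at 1.89 and Bmpr1b at 1.58. In Noradrenergic4 there were 0 of 9 (1.25%), and in Noradrenergic5 1 of 9 (1.41%), Fst at -4.21.

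Of these calls, Bmp4 in Noradrenergic2 and Fst in Noradrenergic5 were made under all 15 alternative settings. Fst in Noradrenergic2 was not called under 2, with DESeq2 (2.03) and without the P38 male collection (2.05). Fst in Noradrenergic3 was not called under 4, with DESeq2 (2.10) and without P29 male (1.85), P30 female (1.65) or P38 male (1.87). Bmpr1b in Noradrenergic3 was not called under 3, with DESeq2 (1.36) and without P31 female (2.09) or P38 male (1.45). In 3 other contrasts Fst was not called, but was under some alternatives. In Noradrenergic1 its log2 fold change was 2.07. It was called with libraries of at least 2 cells (2.60) and without P16 female (2.05), P33 female (2.28) or P34 female (2.56). In cholinergic against noradrenergic cells it was -1.86, and was called at -4.42 without P16 female, at -3.08 without P31 female and at -1.54 without P33 female. In Noradrenergic4 it was -1.94, and was called at -3.34 without P33 female and at -1.95 without P16 female.

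Correlations between members from cell to cell were weak. Over all Noradrenergic3 cells, on log2 levels per 10000 plus 0.1, Fst and Bmpr1b had a Pearson r of -0.30 and a Spearman rho of -0.35. Bmp4 and Bmpr1b had an r of -0.25 and a rho of -0.23, and 8 cells held both, out of 22 with Bmp4 and 62 with Bmpr1b. Bmpr1a and Bmpr1b had an r of 0.16. In the 39 Noradrenergic2 cells the same pairs had r of -0.05, 0.05 and -0.05. The counts are low, the cells share collections and depth, and these values are descriptions with no test.

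Sex and age were the comparisons that did not enter the choice of genes, and Noradrenergic3, with 7 collections of 3 or more cells, was the identity with enough cells to test them. None of the 9 members was called between male and female cells or with postnatal day. Between the sexes, 3 of 10141 genes (0.0296%) were called by edgeR's quasi-likelihood test with day as a covariate, 397 genes had an unadjusted p under 0.05, and DESeq2 called 4. By the leading digits of the chip names, all male cells are on 1 chip lot. The female cells of P11 and P31 and most of those of P33 are on the other. Sex is thus partly tied to chip lot, and values from a fit within 1 lot are given at the end. With postnatal day, 1.25% of genes were called. Of the members, 0 for sex and 2 for day had an unadjusted p under 0.05.

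For sex, the Bmp4 level was 0.0467 and 0.116 counts per 10000 in the male collections of P29 and P38. In the female collections of P11, P30, P31, P33 and P34 it was 0, 0.0781, 0.110, 0.336 and 0.0855. The male values lie within the female range, and the fitted log2 fold change of male against female was -1.59 (SE 0.80, edgeR p = 0.0516, adjusted p = 0.9996). It ranged from -2.91 without P29 male to -0.54 without P38 male, and was -0.84 without P33 female. Acvr2a was at 0.607 and 0.430 in the P29 and P38 male collections. In the female collections of P11, P30, P31, P33 and P34 it was at 0.397, 0.410, 0.399, 0.336 and 0.257. The sexes did not overlap in this member, but there were only 2 male and 5 female collections. How many of all genes separate in this way was not counted, so the separation is not read as a result. On the log2 scale the difference was 0.49 (SE 0.33, edgeR adjusted p = 0.9996). Fst was at 2.16 ± 0.208 in male collections (SD, n = 2) and 2.39 ± 0.532 in female collections (n = 5), a log2 fold change of -0.05 (SE 0.20).

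With age, Bmp4 had the lowest p of the members. The 6 Noradrenergic3 cells of P11 held 0 Bmp4 counts in 226695, which allows up to 0.132 counts per 10000, and 5 of the 6 later collections lay below that limit. Over all 9 named P11 cells there were 0 Bmp4 and 61 Fst counts in 347525. The fitted log2 change in Bmp4 per 10 days was 2.36 (SE 0.85, edgeR p = 0.00776, adjusted p = 0.184). It was 2.26 without P11 female (adjusted p = 0.997), and 4.09 and 4.04 without P29 male and P38 male (adjusted p = 0.167 and 0.178). Over its 10 alternatives the value ranged from 1.71 to 4.09. Bmpr2 had 1.01 counts per 10000 at P11, the lowest collection, and 1.41 to 1.92 in the 6 later ones, with a log2 change per 10 days of 0.30 (SE 0.15, edgeR p = 0.0461, adjusted p = 0.417). Fst had 2.69 at P11, inside the range of 1.56 to 2.87 of the later collections, and a change of -0.16 (SE 0.12). Only 1 collection with Noradrenergic3 cells is younger than P29, so age and that collection cannot be told apart.

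**Figure D3:**
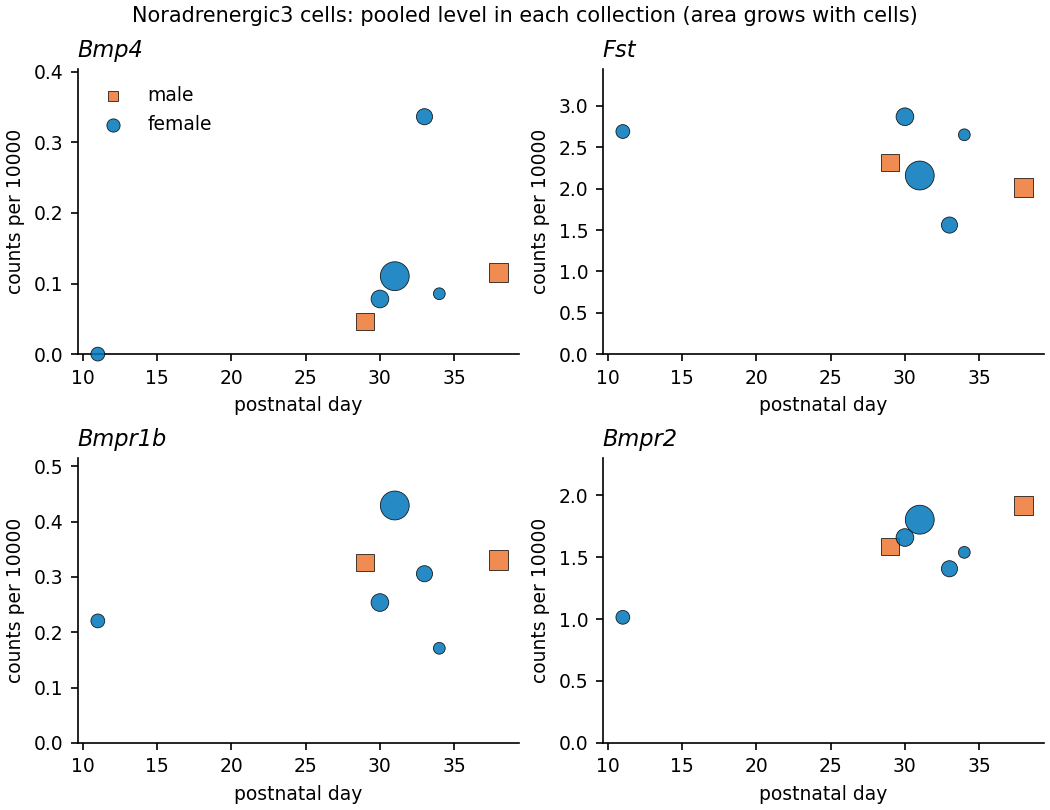
Level in Noradrenergic3 cells (counts per 10000) against postnatal day for Bmp4, Fst, Bmpr1b and Bmpr2, with a point for each of 7 collections (squares male, circles female, area growing with cells). Bmp4 is at 0 and Bmpr2 at 1.01 at P11, and the P33 female collection has the highest Bmp4, 0.336.

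The rest of the pathway was followed in a list of 93 other genes for ligands, antagonists, co-receptors, receptors, SMADs, SMAD regulators and targets, chosen with earlier results of these data known. The table holds 79 of them, and 46 passed the filter on low values. Of the other ligands Tgfb3 was the most abundant, with 146 counts in 78 named cells, where Bmp4 had 154 counts in 61. Bmp2 had 64 counts in 48 named cells, Bmp3 had 65 in 44, and Inhba, the subunit of activin A, had 1 count. The antagonists Nog (noggin) and Chrd (chordin) had 4 and 3 counts. By contrast Smad1 was counted in 154 cells and Smad4, the shared partner of all the receptor SMADs, in 180.

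How the submitters assigned identities is not given in the sources used here, and if the same counts were used the tests between identities are not independent of the grouping. In cholinergic against noradrenergic cells 5 of 46 pathway genes were called (10.9%, against 4.57% of all genes), 3 higher and 2 lower. Their median log2 fold change was 0.03 and that of all genes -0.20, or -0.04 with relative log expression factors, a shift that bears on every value of this contrast. Of all genes, 251 were called higher and 277 lower, but 338 and 219 with those factors. The fit weights identities equally and adjusts for collection, whereas the levels set beside it pool cells, here and below. They can therefore differ in size or direction. Bmp4 in Noradrenergic3 was at 0.110 counts per 10000 against 0.302 in the other noradrenergic cells, with a fitted log2 fold change of 0.77. Bmp3, a BMP ligand that can oppose other BMPs, had 0.307 ± 0.256 counts per 10000 in cholinergic cells (SD, n = 7) and 0.129 ± 0.132 in noradrenergic cells (n = 10; log2 fold change 2.64, SE 0.58, edgeR adjusted p = 0.000246). Id1, a BMP target, had 1.18 ± 0.805 and 0.282 ± 0.201 (log2 1.03, SE 0.30, edgeR adjusted p = 0.0154), and Sostdc1, a secreted BMP and Wnt antagonist, 0.749 ± 0.448 and 0.202 ± 0.128 (1.35, SE 0.40, edgeR adjusted p = 0.0215).

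In the same contrast Fstl5, a follistatin-like gene, had 0.484 ± 0.366 counts per 10000 in cholinergic cells (n = 7) and 1.62 ± 0.765 in noradrenergic cells (n = 10; log2 fold change -1.43, SE 0.34, edgeR adjusted p = 0.000924). Nbl1, a secreted BMP antagonist also called DAN, had 0.822 ± 0.560 and 1.45 ± 0.809 (-1.23, SE 0.26, edgeR adjusted p = 0.000172). With libraries of at least 2 cells, Bmp3 (2.12), Id1 (0.34), Sostdc1 (1.26) and Nbl1 (-1.08) were not called. Bmp3 was not called without P38 male (2.04), Id1 without P16 female (0.83), P30 female (0.85) or P38 male (0.96), and Sostdc1 without P16 female (1.09), P30 female (1.25) or P31 female (0.93). The summed level of 12 satellite glia and Schwann cell markers had a median of 29.1 counts per 10000 per cell in Ach1 (range 4.81 to 63.9) and 29.3 in Ach2 (5.07 to 49.2), against medians of 4.62 to 9.37 in the noradrenergic identities. Sostdc1 is on that list too, and the part of glial RNA in these differences was not tested.

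Among the noradrenergic identities, Noradrenergic1 had 4 of 46 pathway genes called (8.70%, against 1.39% of all genes). The follistatin-like gene Fstl1 had 4.05 ± 1.43 counts per 10000 in Noradrenergic1 (SD, n = 5) and 0.757 ± 0.267 in the other noradrenergic cells (n = 9), higher in 4 of 4 collections with both (log2 3.05, SE 0.35, edgeR adjusted p = 1.88e-11). Fstl5 had 0.270 ± 0.192 and 1.77 ± 0.672, lower in 4 of 4 (-2.49, SE 0.47, edgeR adjusted p = 3.71e-05). Both were called under all 15 alternatives. Bambi, a pseudoreceptor without a kinase domain, was counted in 2 of 10 Noradrenergic1 cells. It had 0.200 ± 0.275 and 0.0234 ± 0.0262, higher in 2 and lower in 2 of 4 collections. Bmp3 had 0.275 ± 0.228 and 0.0881 ± 0.0824, higher in 3 of 4 and lower in 0. Bambi was at 3.05 (SE 0.89, edgeR adjusted p = 0.0437) and lost its call under 7 alternatives. Bmp3 was at 2.93 (SE 0.80, edgeR adjusted p = 0.0213) and lost its call under 5. Among the alternatives that ended both calls were leaving out P29 male (2.71 and 2.38) or P38 male (2.14 and 2.73). Leaving out P30 female (3.16), P31 female (3.47) or P33 female (3.07) also ended the call of Bambi, and leaving out P30 male (2.72) that of Bmp3. The median of all genes in this contrast was -0.15, and -0.01 with relative log expression factors.

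In Noradrenergic3, 2 of 46 were called (4.35%, against 1.74% of all genes), and both were BMP target genes that were lower. Id1 had 0.184 ± 0.120 counts per 10000 in Noradrenergic3 (SD, n = 7) and 0.380 ± 0.322 in the other noradrenergic cells (n = 10; log2 fold change -1.31, SE 0.28, edgeR adjusted p = 0.000535), and was called under all 15 alternatives. Id3 had 0.330 ± 0.267 and 0.899 ± 0.773, lower in 7 of 7 collections (-0.87, SE 0.24, edgeR adjusted p = 0.0220). It was not called with DESeq2 (-1.02), without P31 female (-1.03) or without P38 male (-0.61). All genes had a median of 0.16, or 0.05 with relative log expression factors, which moved the calls of all genes from 169 higher and 32 lower to 115 and 45. In Noradrenergic2, 1 of 46 was called (2.17%, against 1.64%): Pmepa1, a TGF-beta target that restrains SMAD2 and SMAD3, had 1.08 ± 0.393 in Noradrenergic2 (n = 7) and 0.607 ± 0.353 in the others (n = 8), higher in 5 of 5 collections (1.23, SE 0.25, edgeR adjusted p = 0.000155). Without P31 female it was at 0.93 and not called. Id1 and Id3 were not called in Noradrenergic2, where Id1 had 0.459 ± 0.297 against 0.271 ± 0.168 and Id3 0.715 ± 0.349 against 0.747 ± 0.901. In Noradrenergic1, which had no Bmp4 count, Id1 had 0.904 ± 0.518 (n = 5) against 0.273 ± 0.201 in the others (n = 9) and Id3 1.64 ± 0.909 against 0.539 ± 0.376. Both lay above in 4 of 4 collections and were not called (edgeR adjusted p = 0.144 and 0.333). Noradrenergic4 and 5 had 0.468 ± 0.559 (n = 5) and 0.384 ± 0.403 (n = 6) of Id1, and neither Id gene was called there.

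Nbl1 was higher in both Noradrenergic4 and Noradrenergic5. It had 2.81 ± 0.458 counts per 10000 in Noradrenergic4 (SD, n = 5) and 1.34 ± 0.836 in the other noradrenergic cells (n = 10), higher in 5 of 5 collections (log2 1.08, SE 0.23, edgeR adjusted p = 0.000378), and was not called without P38 male (0.96). In Noradrenergic5 it had 2.42 ± 1.58 (n = 6) and 1.38 ± 0.824 (n = 10; 0.80, SE 0.23, edgeR adjusted p = 0.0400), and the call was lost under 7 of 15 alternatives with values of 0.53 to 0.88, 5 of them without P29 male (0.53), P30 female (0.81), P31 female (0.76), P33 female (0.88) or P38 male (0.79). In Noradrenergic4, 2 of 46 pathway genes were called (4.35%, against 1.25% of all genes). The other was Fstl1, at 0.175 ± 0.150 and 1.34 ± 1.49 (-2.75, SE 0.54, edgeR adjusted p = 0.000337), which lost its call with relative log expression factors (-2.75) and without P30 male (-2.74). In Noradrenergic5, 3 were called (6.52%, against 1.41%). Fstl5 was higher, at 2.43 ± 0.567 and 1.53 ± 0.764, in 6 of 6 collections (1.06, SE 0.25, edgeR adjusted p = 0.00291), and was not called without P29 male (0.95) or P31 female (0.83). Pmepa1 was lower, at 0.275 ± 0.330 and 0.692 ± 0.365 (-1.59, SE 0.44, edgeR adjusted p = 0.0240), and was not called with DESeq2 (-1.34) or without P31 female (-0.88), P33 female (-1.37) or P38 male (-1.46). In Noradrenergic3, 0 of 41 pathway genes were called for sex and 0 of 41 for day.

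**Figure D4:**
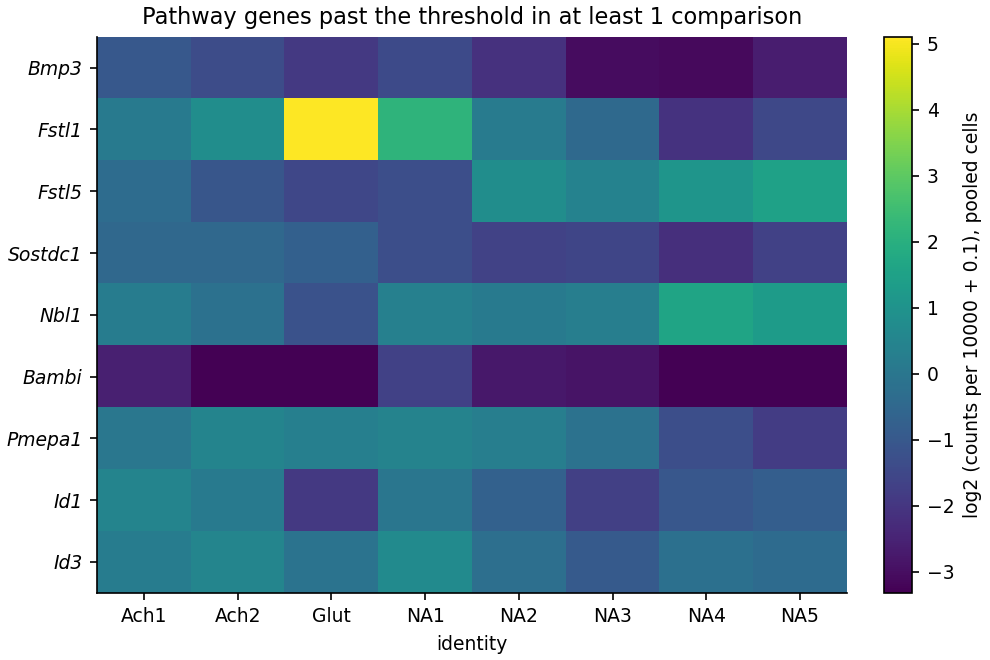
Pathway genes past the threshold in at least 1 contrast of identities, as log2 of counts per 10000 plus 0.1 with all cells of an identity pooled (NA, noradrenergic; Glut, glutamatergic). Fstl1 reaches 34.3 counts per 10000 in the 4 Glutamatergic cells and 4.34 in Noradrenergic1, and Nbl1 is highest in Noradrenergic4 (2.92) and Noradrenergic5 (2.39).

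For the 4 members with at least 200 counts, the genes most like them were sought by the Pearson correlation of log2 levels (pseudocount 0.1) over the 18 libraries of at least 3 cells, among 5888 genes. Fst was most like Chodl (r = 0.958), Npy (0.953), the gene for neuropeptide Y, and Pcdh7 (0.938). Acvr2a was most like Cpne8 (0.881), Susd5 (0.876) and Ift27 (0.875), and Bmpr2 most like Arl4c (0.885), Nr1d2 (0.813) and Tex261 (0.810). The closest to Bmpr1a were Mzt1 (0.735), Svip (0.712) and Sharpin (0.708). Between members, Fst and Acvr2a had an r of 0.68, Bmpr1a and Bmpr2 0.54, and the other 4 pairs between -0.18 and -0.04. The libraries share identities and collections, so these values describe likeness only.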

How the data were processed

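The deposited table holds counts per gene and cell, as the authors made them, and whether they are counts of molecules is not given in the sources used here. Per the submitters' processing notes the build was mm10, and the aligner and counting program are not given there. Counts were summed over the cells of each identity and collection, giving 44 libraries of 1 to 43 cells, 16 of them single cells. The 11555 genes with 20 or more counts, present in 3 or more libraries, entered the fit with TMM factors in edgeR 4.0.16 (R 4.3.3, robust quasi-likelihood, trended dispersion) with terms for identity and collection, and contrasts weighted identities equally. Sex and postnatal day (per 10 days) were fitted together in Noradrenergic3 libraries of at least 3 cells, over 10141 genes. F tests were two-sided with Benjamini-Hochberg adjustment and a threshold of 0.05. The SE is the log2 fold change divided by the square root of F.

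Collection was kept as a block because libraries of the same collection deviated together (r of 0.132 to 0.158 in 4 pairs, mean of -0.03 in 20 others). With no animals named, p-values measure only the spread between collections. Named genes were all 9 members, pathway genes called in a contrast (at most 8 by absolute fold change), abundant or textbook members of each role, and the 3 genes most like each member with at least 200 counts. Noggin, chordin and activin genes were named after their values were seen. The members and lists were chosen with earlier results of these data known. Alternatives were DESeq2 1.42.0, relative log expression factors, no filter, no block, libraries of at least 2 cells, 1 chip lot, no age covariate, and leaving out each collection. Members' levels without P16 female were added after the data were seen. Of 8 marker lists, those not quoted in the text had cell medians of 0 to 0.213 counts per 10000 in the noradrenergic cells, apart from neuronal markers (201 to 231). Gene positions are from GENCODE and promoter sequences from RefSeq.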

Additional observations from a re-analysis of the deposited data

Results flagged for a closer look

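Of 43 groups of collections or cells looked at, 9 had a highest or lowest value far from the rest by Dixon's criterion. For normally distributed values chance gives this in about 1 of 20 groups. These counts are sparse, and a group with counts in a single cell is flagged by that alone, so the rate cannot be applied here. Among collections these were Bmp4 in Noradrenergic3 at P33 female (0.336 counts per 10000), Acvr2b in Noradrenergic3 at P34 female (0.257), Bmpr1a in Noradrenergic2 at P29 male (0.543) and Bmpr1a in Noradrenergic5 at P34 female (0). Among single cells they were the Fst cell of Ach1 at P31 (1.34 counts per 10000), that of Ach2 at P16 (2.15) and that of the Glutamatergic cells at P33 (1.57), a Bmpr1b cell of Ach1 at P30 male (0.718, from 1 count) and a Bmpr1a cell of Noradrenergic1 at P30 female (2.66, from 3 counts).

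The 85 Unclassified cells entered no comparison, and members were counted in them as well. They held 37 Bmp4 counts in 28 cells, 370 Fst counts in 68 cells, 96 of Bmpr1a in 50 and 45 of Bmpr1b in 30. They also held 386 counts of Bmpr2, 104 of Acvr2a, 47 of Acvr1, 16 of Acvr2b and 9 of Acvr1b. Their median total was 22977 counts, and their glial list had a median of 26.9 counts per 10000 per cell.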

How the results depend on the processing

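Of the members' 1009 fold changes under the alternatives, 927 kept direction and side of the threshold, 9 gained and 9 lost a call, and 64 uncalled values changed sign, 42 between identities and 22 for sex or day. Between identities these included Bmp4 in Noradrenergic4 (0.86, range -1.49 to 1.33) and Noradrenergic3 (0.77, range -0.16 to 1.04), and Acvr1 in Noradrenergic4 (0.31, range -0.20 to 0.93). With libraries of at least 2 cells, 279 genes were called in cholinergic against noradrenergic cells (2 of the pathway) and 242 in Noradrenergic1, and the pathway counts were 5, 4 and 4 in Noradrenergic2, 3 and 4. DESeq2 called 114, 109 and 99 genes in Noradrenergic2, 3 and 5, with 1 pathway gene in Noradrenergic3 and 1 in Noradrenergic5, and relative log expression factors gave 2 in Noradrenergic2. For sex, 12 genes were called without a filter and 22 within 1 chip lot, where 14 were called for day.

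Leaving out 1 collection at a time gave 348 (without P29 male) to 567 calls in cholinergic against noradrenergic cells, 90 (P29 male) to 166 in Noradrenergic1, 114 (P31 female) to 205 in Noradrenergic2, 117 (P31 female) to 207 in Noradrenergic3, 87 (P31 female) to 152 in Noradrenergic4 and 56 (P31 female) to 174 in Noradrenergic5. For sex the range was 3 to 12 (P29 male), and for day 6 (P11 female) to 159. Pathway counts ranged from 3 to 5, 2 to 4, 1 to 3, 1 to 2, 1 to 3 and 0 to 3 in the same order of identity contrasts.

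Reversed log2 values for sex were -0.15 (DESeq2), -0.047 (no covariate) and -0.16 (chip lot) for Acvr1, and 0.014, 0.023 and 0.49 for Bmpr1b. For day in the chip lot they were 0.63 for Bmpr1a and -0.020 for Bmpr1b. Leaving out collections, sex values ranged from -1.88 to 0.83 for Acvr1, -0.85 to 0.27 for Bmpr1a, -0.20 to 0.30 for Bmpr1b, -0.041 to 0.11 for Bmpr2 and -0.17 to 0.062 for Fst. Day values ranged from -1.41 to 0.28 for Acvr1, -0.35 to 0.37 for Bmpr1a and -0.040 to 0.27 for Bmpr1b. The cause was not tested. Depth limits Acvr1b and Acvr2b most, with 65 and 50 counts in all named cells. Bmp4 in the chip lot was too sparse to be fitted. Acvr1b and Acvr2b also lacked fits under some alternatives, with 11 and 10 alternatives for sex against 12 for Fst.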
